A study of Mus musculus with 4 samples.

Results

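Long non-coding RNAs from 8 genes were followed through an RNA immunoprecipitation with an antibody against 4E-T, out of 35147 genes in the deposited table. They were chosen by name, as long non-coding RNAs that lie outside imprinted loci and do not host small nucleolar RNAs. Malat1, Neat1, Miat and Firre are known as nuclear-retained, Norad as cytoplasmic, and Rmst, Sox2ot and Pantr1 as RNAs of neural tissue. The table listed 6 of the 8 under these names. Norad stood under its older name 2900097C17Rik, a RefSeq synonym, and Rmst under the name RMST_1, with an Ensembl identifier that the reference table of gene names pairs with Rmst.

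The RNA came from the ventricular-subventricular zone (V-SVZ), the stem cell niche beside the lateral ventricles, of CD1 mice, wild type and 7 or 8 days old. Tissue lysate was precipitated with anti-4E-T or, as control, with anti-IgG, in 2 numbered experiments that each gave 1 library per antibody, 4 in all. All groups shared genotype, strain, age and tissue, and differed in the antibody alone. How many animals went into a library, and whether they were pooled, is not known here, so the spread that p-values measure, between single libraries, may be technical.

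Long non-coding RNAs are transcripts that are processed like messenger RNA but are not known to be translated into a conserved protein. Many act where they are kept: Malat1 gathers in nuclear speckles, domains rich in splicing factors, and Neat1 is the scaffold on which paraspeckles assemble. Others work in the cytoplasm, where Norad binds the Pumilio translational repressors. 4E-T, encoded by Eif4enif1, binds the cap-binding protein eIF4E and is a core protein of P-bodies, which are cytoplasmic granules of untranslated RNA. The libraries ask which RNAs make up more of what comes down with 4E-T than of what control IgG brings down. Values are relative within a library, so the amount of RNA brought down is not known here.

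The promoter sequences of the 3 genes with an entry in the RefSeq promoter table are shown here: Firre and Miat, which stood highest among the 8 in 4E-T over IgG, and Malat1, the most abundant. Each runs from 250 bases before to 50 bases after the RefSeq start (build GRCm38.p6, minus strand, printed 5′ to 3′), and capitals mark matches, on either strand, to the E-box motif CACGTG, the GC-box motif GGGCGG and the CRE-type motif TGACGT. The windows are chrX:50635272-50635571 for Firre, chr5:112228899-112229198 for Miat and chr19:5802623-5802922 for Malat1.
Firre: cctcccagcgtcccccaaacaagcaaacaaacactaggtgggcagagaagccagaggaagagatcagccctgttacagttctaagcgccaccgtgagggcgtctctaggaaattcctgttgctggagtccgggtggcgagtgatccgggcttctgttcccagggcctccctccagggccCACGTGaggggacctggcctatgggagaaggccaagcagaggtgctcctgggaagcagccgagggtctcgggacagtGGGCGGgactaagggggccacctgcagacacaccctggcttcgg
Miat: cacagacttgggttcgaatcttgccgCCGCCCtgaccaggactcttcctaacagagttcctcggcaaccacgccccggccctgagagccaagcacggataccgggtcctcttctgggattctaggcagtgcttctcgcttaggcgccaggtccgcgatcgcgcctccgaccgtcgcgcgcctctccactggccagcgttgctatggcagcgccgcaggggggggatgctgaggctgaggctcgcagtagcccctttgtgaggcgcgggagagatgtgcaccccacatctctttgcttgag
Malat1: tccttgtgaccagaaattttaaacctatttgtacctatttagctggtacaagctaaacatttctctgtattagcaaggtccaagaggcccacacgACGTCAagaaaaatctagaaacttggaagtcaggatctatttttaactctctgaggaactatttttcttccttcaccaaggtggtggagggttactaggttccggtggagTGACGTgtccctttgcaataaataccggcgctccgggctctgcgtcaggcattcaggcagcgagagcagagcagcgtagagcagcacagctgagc
The Firre window held 1 CACGTG, which reads the same on both strands, and 1 GGGCGG. The Miat window held 1 GGGCGG, on the opposite strand, and the Malat1 window held 2 TGACGT, 1 on each strand. None of these matches overlapped another, and none of the windows held TATAAA. Of the 32851 promoter windows of the same length, 7.15% held CACGTG, 35.7% GGGCGG, 7.51% TGACGT and 13.6% TATAAA. The Miat window had 25 CG dinucleotides, against 12 for Firre, 10 for Malat1 and a median of 7 over all windows. A match is a description of these letters, and an immunoprecipitation of RNA does not measure the promoter.

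Firre and Miat stood higher with 4E-T than with IgG in both experiments, and the 2 groups did not overlap for either. The other 6 did not move together. Malat1 and Rmst were higher in experiment 1 with either antibody, Neat1 was lowest with 4E-T, Norad had a single high IgG library, and Sox2ot and Pantr1 varied little on the FPKM scale. Values are FPKM, reads per kilobase of gene scaled to the library, as deposited by the authors for each library. A comparison between genes rests on the length by which the reads of each gene were divided.

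**Figure D1:**
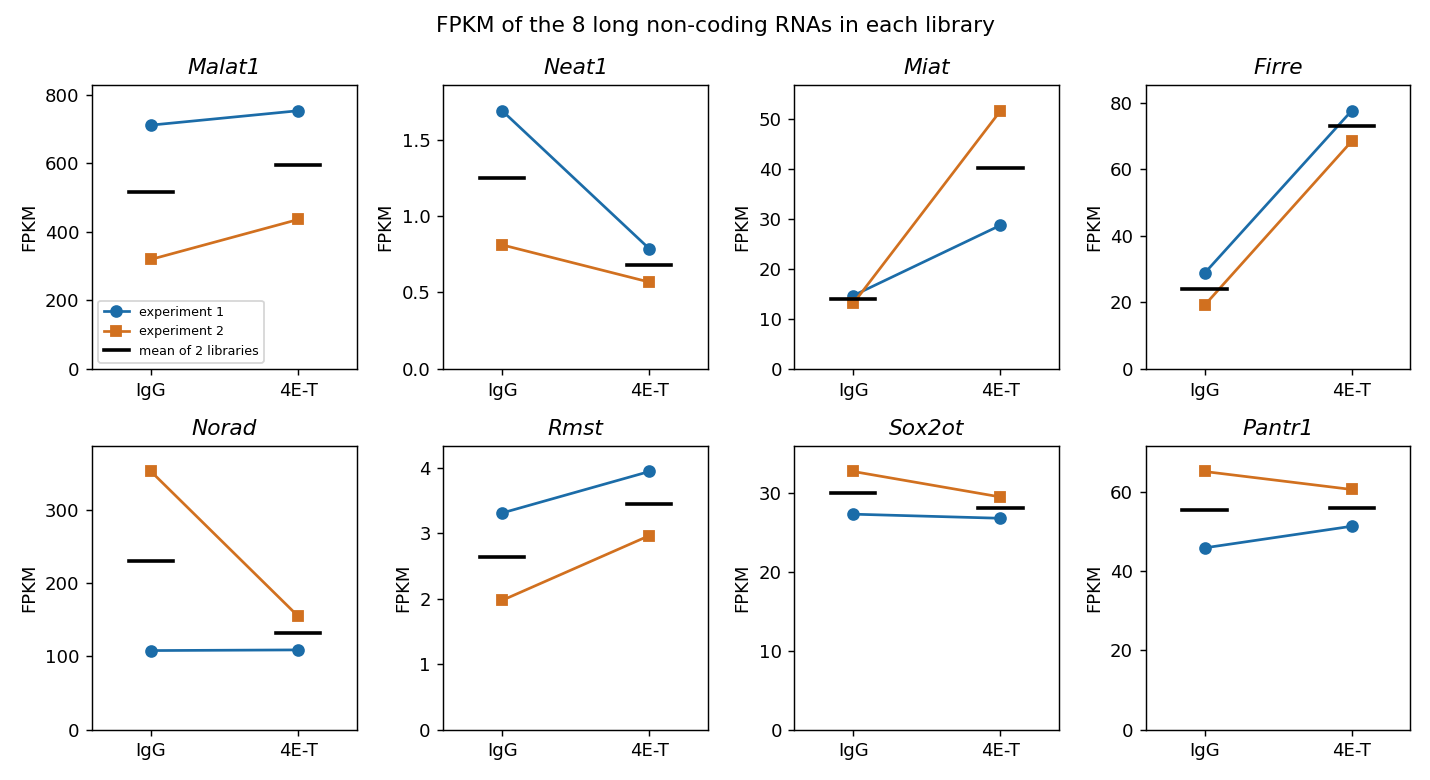
FPKM (vertical axes, linear from 0, 1 panel per RNA) of the IgG and 4E-T libraries. Lines join the libraries of 1 experiment (circles, experiment 1, and squares, experiment 2) and black bars are the means of 2 libraries. Both 4E-T libraries lie above both IgG libraries for Miat and Firre (32.6% of genes), and below them for Neat1 (8.13% of genes). These shares are over genes with a mean of at least 1 FPKM, which leave out Neat1.

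Gene reads numbered from 14421019 (IgG replicate 1) to 28749439 (4E-T replicate 2). Pearson's r across 17651 genes, which are not independent replicates, was 0.973 between the 4E-T libraries, 0.922 between the IgG libraries and 0.947 between IgG replicate 2 and 4E-T replicate 2. The deposited FPKM are not divided by each library's gene reads, so each result below is also given in RPM, a gene's reads over the gene reads of its library on a per-million scale, where that scale alters it. From IgG to 4E-T, the median of the tested genes changed 1.31-fold in experiment 1 and 1.08-fold in experiment 2 on the FPKM scale, but 0.912-fold and 0.978-fold in RPM. Of 8 marker lists, none had a marker at 0 in any library. Neural stem cell markers took 0.222% to 0.333% of gene reads, with overlapping groups. Transit-amplifying precursor markers took 0.0572% and 0.0511% with IgG and 0.132% and 0.082% with 4E-T. With the block 4 of these 6 were called higher, as were 2 of 9 stem cell, 1 of 7 neuroblast and 1 of 7 oligodendrocyte markers. Lower were 3 of 8 vascular and 1 of 6 microglial markers. Of all tested genes 17.5% were called higher and 4.44% lower. After quantile normalization with the block the marker counts called higher were unchanged. Lower were then 5 of 6 microglial, 4 of 6 ependymal and choroid plexus, and 3 of 4 red blood cell markers. So were 4 of 9 stem cell, 2 of 7 oligodendrocyte, 1 of 7 neuroblast and 1 of 8 vascular markers. In that fit 10.4% of all tested genes were higher and 9.23% lower. Apart from the stem cell and transit-amplifying lists, the other 6 lists took a smaller share of gene reads in both 4E-T libraries than in either IgG library. On the FPKM scale their median log2 fold changes ran from -0.552 (vascular) to 0.028 (neuroblast). Vascular markers ranged from 0.0334% to 0.0717% with IgG and from 0.0219% to 0.027% with 4E-T, and microglial markers from 0.0541% to 0.0725% and from 0.0381% to 0.0422%. Oligodendrocyte markers ranged from 0.238% to 0.378% with IgG and from 0.201% to 0.22% with 4E-T, and neuroblast markers from 0.14% to 0.152% and from 0.117% to 0.127%. Red blood cell markers ranged from 0.0527% to 0.075% with IgG and from 0.0336% to 0.0466% with 4E-T, and ependymal and choroid plexus markers from 0.0186% to 0.0259% and from 0.00948% to 0.0177%. Both antibodies were used on lysate of the same tissue, so these shares describe the RNA brought down and do not count cells. The part of the marker differences in the results below was not tested.

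Firre is a nuclear RNA of the X chromosome (X, 50563120 to 50635321, GRCm38.p6) that binds the nuclear matrix protein hnRNPU. With IgG it had 28.8 (replicate 1) and 19.1 FPKM (replicate 2), and with 4E-T 77.6 and 68.4 FPKM, in the same order as all pairs of values below. Both 4E-T libraries were above both IgG libraries, with a gap wider than the spread inside either group. The mean FPKM was 23.9 ± 6.82 with IgG and 73.0 ± 6.49 with 4E-T (SD, n = 2 each), a 3.05-fold difference. The fold was 2.7 in experiment 1 and 3.58 in experiment 2. In RPM, Firre had 234 and 93.1 with IgG, and 441 and 303 with 4E-T. These groups did not overlap either, although IgG replicate 1 came closer to 4E-T replicate 2, and the folds were 1.88 in experiment 1 and 3.25 in experiment 2.

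Miat, also called Gomafu (chromosome 5, 112213228 to 112228948), is a neuronal RNA that stays in the nucleus and carries repeats of the motif recognised by splicing factor SF1. With IgG it had 14.7 and 13.1 FPKM, and with 4E-T 28.8 and 51.7 FPKM. The IgG libraries lay close together, the 4E-T libraries lay apart from each other, and the groups did not overlap. The means were 13.9 ± 1.11 and 40.3 ± 16.2 FPKM (SD, n = 2), a 2.89-fold difference, which was 1.96-fold in experiment 1 and 3.94-fold in experiment 2. The RPM were 197 and 106 with IgG and 269 and 377 with 4E-T, or folds of 1.37 and 3.58. The groups did not overlap on this scale either, and the wider gap was in experiment 2.

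With antibody as the only term, limma on log2(FPKM + 1) called none of the 7 RNAs that passed the filter of a mean of at least 1 FPKM. Among all genes tested it called 0.00567% higher and 0% lower, and 2 of the 7, Firre and Miat, had an unadjusted p under 0.05. Firre had a log2 fold change of 1.59 (SE 0.45, limma adjusted p = 0.221), and Miat one of 1.41 (SE 0.44, limma adjusted p = 0.243). With the experiment number as a block, which pairs the libraries of an experiment, both rose: limma adjusted p = 4.37e-06 for Firre (SE 0.30) and 2.69e-05 for Miat (SE 0.29). In that fit 17.5% of all tested genes were called higher and 4.44% lower, and 2 of these 7 RNAs were higher and 0 lower. By rank of the log2 fold change from the highest of 17651 genes, Firre was at 172 and Miat at 343. The blocked fit has 1 residual degree of freedom and borrows its spread from all genes. Once the libraries were quantile-normalized, the blocked fit called 10.4% of genes higher, Firre among them (1.19, limma adjusted p = 0.000216), and Miat was no longer called (0.98, limma adjusted p = 0.172).

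Fits that left out a library, without a block, bear on the same calls. Without IgG replicate 1 the log2 fold changes were 1.88 for Firre (limma adjusted p = 0.00328) and 1.49 for Miat (adjusted p = 0.0143), among 4.86% of genes called higher. Without IgG replicate 2 they were 1.31 (limma adjusted p = 0.0315) and 1.33 (adjusted p = 0.0167), among 13.8% called higher and 6.2% lower. Without 4E-T replicate 1 or 2 neither passed, although the log2 fold changes were 1.51 and 1.68 for Firre and 1.82 and 0.999 for Miat, with 0.0113% of genes called higher in either fit and 0.0227% lower without 4E-T replicate 1. Each such fit has 1 library in a group, which is assumed to vary like the others. In a fit of limma-voom on the reads recovered from the FPKM, with the block, Firre was at 1.56 (adjusted p = 4.57e-05) and Miat at 1.38 (adjusted p = 0.000315), with 14.7% of 19488 genes called higher. In the authors' deposited table the log2 fold changes were 1.61 (SE 0.27, adjusted p = 6.02e-07) for Firre and 1.45 (SE 0.31, adjusted p = 0.000127) for Miat, where 10.7% of genes with an adjusted p were called higher and 2.61% lower. That table called none of the other 6.

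**Figure D2:**
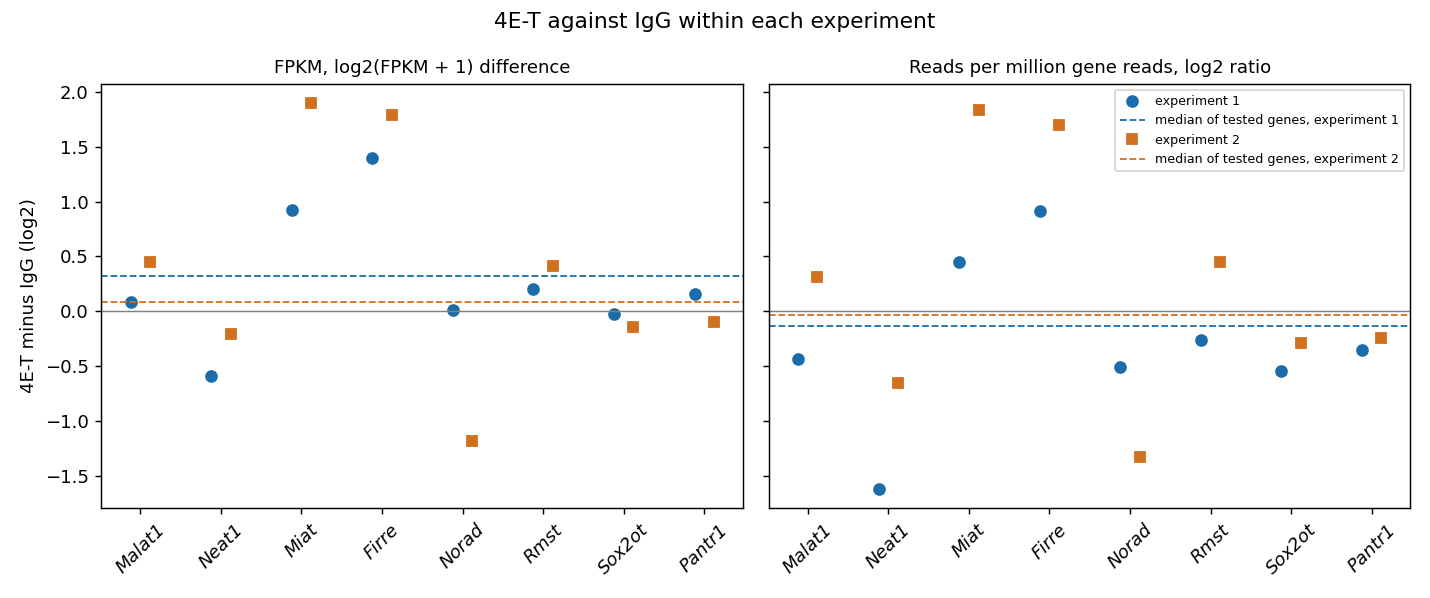
Difference of 4E-T minus IgG (log2) within experiment 1 (circles) and experiment 2 (squares), on the deposited FPKM (left) and in RPM (right). Dashed lines are the medians of the tested genes in each experiment; Miat and Firre lie above them in both experiments on both scales, and Neat1, Norad, Sox2ot and Pantr1 below.

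Malat1, the RNA of nuclear speckles, was the most abundant of the 8 (chromosome 19, 5795690 to 5802672). With IgG it had 711 and 319.6 FPKM and with 4E-T 753 and 436 FPKM, and its mean of 555 FPKM ranked 36 among the 35147 genes. Both libraries of experiment 1 were above both of experiment 2, while IgG and 4E-T overlapped. The ratio of experiment 1 to experiment 2 was 2.23 in IgG and 1.73 in 4E-T, where the median tested gene had 0.709 and 0.851. In RPM, Malat1 went from 7274 to 5377 in experiment 1 and from 1956 to 2423 in experiment 2, so the antibody difference took opposite directions. Its log2 fold change in the limma fit was 0.26 (SE 0.59, limma adjusted p = 0.937 without and 0.613 with the block), and it turned to -0.31 without IgG replicate 2 and -0.13 without 4E-T replicate 1.

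Neat1 lies beside Malat1 on chromosome 19 (5824708 to 5845480) and scaffolds paraspeckles in its long form. Its reads were divided by a length of 20771 bases, recovered from the FPKM, which covers the long form, so reads of the short form count for less per kilobase. It had 1.69 and 0.811 FPKM in IgG and 0.786 and 0.568 FPKM in 4E-T, from 741, 366, 384 and 270 reads in that order. The 4E-T libraries were both below the IgG libraries on this scale, by a narrow margin against IgG replicate 2. The RPM were 51.4 and 14.8 in IgG and 16.7 and 9.39 in 4E-T, where the groups overlapped and IgG replicate 1 stood far above the rest. The fold on the FPKM scale was 0.465 in experiment 1 and 0.7 in experiment 2.

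A mean of 0.964 FPKM kept Neat1 just under the filter of 1 FPKM, so it was tested only in fits without that filter or on reads. Without the filter limma gave it a log2 fold change of -0.40 (SE 0.35, adjusted p = 0.699), and with the block added the adjusted p was 0.327, where 7.67% of genes were called higher and 5.3% lower. The read-based fit with the block gave a fall of -0.91 (SE 0.27, limma-voom adjusted p = 0.00589), where 10.5% of genes were called lower. The authors' deposited table gave -0.83 (SE 0.32, adjusted p = 0.0603).

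Norad, which keeps Pumilio proteins occupied in the cytoplasm, was the second most abundant (chromosome 2, 156388063 to 156392979). With IgG it had 108 and 353 FPKM, and with 4E-T 109 and 155 FPKM. IgG replicate 2 stood above the other 3 libraries, and the groups overlapped. Within experiment 1 the fold was 1.01 and within experiment 2 it was 0.439. In RPM, Norad had 778 and 1520 in IgG and 547 and 606 in 4E-T, and on that scale both 4E-T libraries were the lower ones. Its log2 fold change in the limma fit was -0.58 (SE 0.63, limma adjusted p = 0.791 without and 0.168 with the block). Without IgG replicate 2 it was 0.26 and without IgG replicate 1 it was -1.43 (limma adjusted p = 0.126). Quantile normalization with the block called Norad lower (-0.86, limma adjusted p = 0.00273), where 9.23% of genes were called lower. In RefSeq, the span of Norad overlaps that of Gm14170, and no source used here gives the strand setting of the counting, so reads of the overlap cannot be assigned.

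On the deposited FPKM scale the 3 neural RNAs differed little between antibodies. Rmst (chromosome 10, 92081746 to 92165178), which in human neural stem cells binds SOX2, was the least read of them, with 202 and 124 reads in IgG and 268 and 196 in 4E-T. These reads gave 3.31 and 1.97 FPKM in IgG and 3.94 and 2.96 FPKM in 4E-T. The exact Poisson 95% interval of its RPM ran from 12.1 to 16.1 and from 4.16 to 5.97 with IgG, and from 10.3 to 13.1 and from 5.9 to 7.84 with 4E-T, which covers counting error only. In RPM, Rmst went from 14.01 to 11.65 in experiment 1 and from 5.0 to 6.82 in experiment 2, so the direction in experiment 1 was the opposite of that in FPKM, where the folds were 1.19 and 1.5. As for Malat1, both libraries of experiment 1 exceeded both of experiment 2, and the antibody groups overlapped. Its log2 fold change in the limma fit was 0.31 (SE 0.33, limma adjusted p = 0.789 without and 0.442 with the block).

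Sox2ot (chromosome 3, 34560381 to 34677993) is the long transcript within whose span the neural stem cell factor gene Sox2 lies. It had 27.3 and 32.7 FPKM in IgG and 26.8 and 29.5 FPKM in 4E-T, the narrowest range of the 8, with a highest value 1.22 times the lowest. The 4 libraries overlapped, and limma gave a log2 fold change of -0.09 (SE 0.41, adjusted p = 0.978 without and 0.889 with the block). Sox2, in the same span, had 26.5 and 46.4 FPKM in IgG and 82.9 and 71.6 FPKM in 4E-T. Its groups did not overlap, and it rose by 1.11 on the log2 scale in the blocked fit (limma adjusted p = 0.00242, and 0.368 without the block). The difference between Sox2ot and Sox2 was not tested. Quantile normalization with the block called Sox2ot lower, at -0.49 (limma adjusted p = 0.026). Its highest RPM value was 139, in IgG replicate 1, and both 4E-T libraries, at 95.5 and 81.9, were below both IgG libraries.

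Pantr1 (chromosome 1, 42648200 to 42694825) lies next to Pou3f3, a transcription factor gene of cortical neurons and precursors. It had 45.8 and 65.1 FPKM in IgG and 51.3 and 60.6 FPKM in 4E-T. The 4E-T libraries fell between the IgG libraries, and the means were 55.5 ± 13.6 and 55.9 ± 6.56 FPKM (SD, n = 2). Its log2 fold change in the limma fit was 0.03 (SE 0.46, limma adjusted p = 0.994 without and 0.968 with the block), and its sign turned under other scalings, to -0.32 after quantile normalization. The RPM were 139.9 and 119 with IgG and 109 and 100.5 with 4E-T, and on that scale both 4E-T libraries were below both IgG libraries. Its neighbour Pou3f3 had 10.1 and 24.7 FPKM in IgG and 27.8 and 29.9 FPKM in 4E-T, and rose by 0.82 on the log2 scale in the blocked fit (limma adjusted p = 0.0221). That difference was 0.22 without IgG replicate 1 and 1.43 without IgG replicate 2. Pantr2, a long non-coding RNA on the far side of Pou3f3, had 12.6 and 8.4 FPKM in IgG and 24.0 and 13.5 FPKM in 4E-T, and also rose with the block (0.75, limma adjusted p = 0.0273), with 0.36 without 4E-T replicate 1. After quantile normalization with the block neither Pou3f3 (0.45, limma adjusted p = 0.1) nor Pantr2 (0.33, limma adjusted p = 0.165) was called.

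By mean FPKM the order from the highest was Malat1, Norad, Pantr1, Firre, Sox2ot, Miat, Rmst and Neat1. Pantr1 and Firre overlapped across the 4 libraries, as did Firre, Sox2ot and Miat, and part of their order differed by antibody. Pantr1 was above Firre with IgG in both experiments and below it with 4E-T in both. Sox2ot was likewise above Miat with IgG and below it with 4E-T. Firre was above Miat in every library, and above Sox2ot in all but IgG replicate 2. Malat1 and Norad overlapped as well, since IgG replicate 2 had 353 FPKM of Norad and 319.6 of Malat1. Rmst and Neat1 were each below the 6 others in every library, and Neat1 was below Rmst in every library.

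On the FPKM scale, 2 of the 8 had both 4E-T libraries above both IgG libraries, where 32.6% of the 17651 genes with a mean of at least 1 FPKM did. One of the 8, Neat1, had both below, where 8.13% of those genes did. With a mean of 0.964 FPKM, Neat1 itself is not among the genes behind the shares given here. Malat1 and Rmst had both experiment 1 libraries above both experiment 2 libraries (10.7% of genes), and Norad, Sox2ot and Pantr1 had both below (41.7% of genes). On the RPM scale, 3 of the 8 had both 4E-T libraries below, Norad, Sox2ot and Pantr1, where 25.9% of genes did, and 2 had both above, where 22.9% did. On that scale Malat1, Neat1 and Rmst were higher in experiment 1 in both antibodies, as were 30.2% of genes. The shares of 8 RNAs with both 4E-T libraries above were thus close to the share over all genes on either scale.

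Other long non-coding RNAs give the setting. Unlike the 8, they include RNAs of imprinted loci and hosts of small nucleolar RNAs, such as Meg3 and Snhg5, whose part in the counts below was not tested. Of 3301 further genes that RefSeq types as long non-coding and that the table lists by the same symbol, 800 passed the filter, and their median log2 fold change was 0.04, against 0.18 over all tested genes. With the block 90 of the 800 rose and 42 fell, against 17.5% and 4.44% of all tested genes. Quantile normalization with the block gave 37 higher and 27 lower, against 10.4% and 9.23% of all tested genes. Limma-voom on reads, blocked, tested 1140 genes of this type and gave 79 higher and 182 lower with a median of -0.21. In that fit 14.7% of all tested genes were higher and 10.5% lower. The balance thus differed between fits, and the read-based fit also differed in the genes it tested. On the FPKM scale 235 of the 800 had both 4E-T libraries above both IgG libraries and 117 had both below, against 32.6% and 8.13% of all genes. Among the 63 with a mean of at least 10 FPKM the median was 0.46, with 27 higher and 1 lower under the block. That mean is over all 4 libraries, so high 4E-T values help a gene reach it. The share over all genes of that level is not given here. After quantile normalization with the block these 63 had 15 higher and 8 lower and a median of 0.08. Their summed share of gene reads was 0.83% and 0.508% in IgG and 1.12% and 1.01% in 4E-T.

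**Figure D3:**
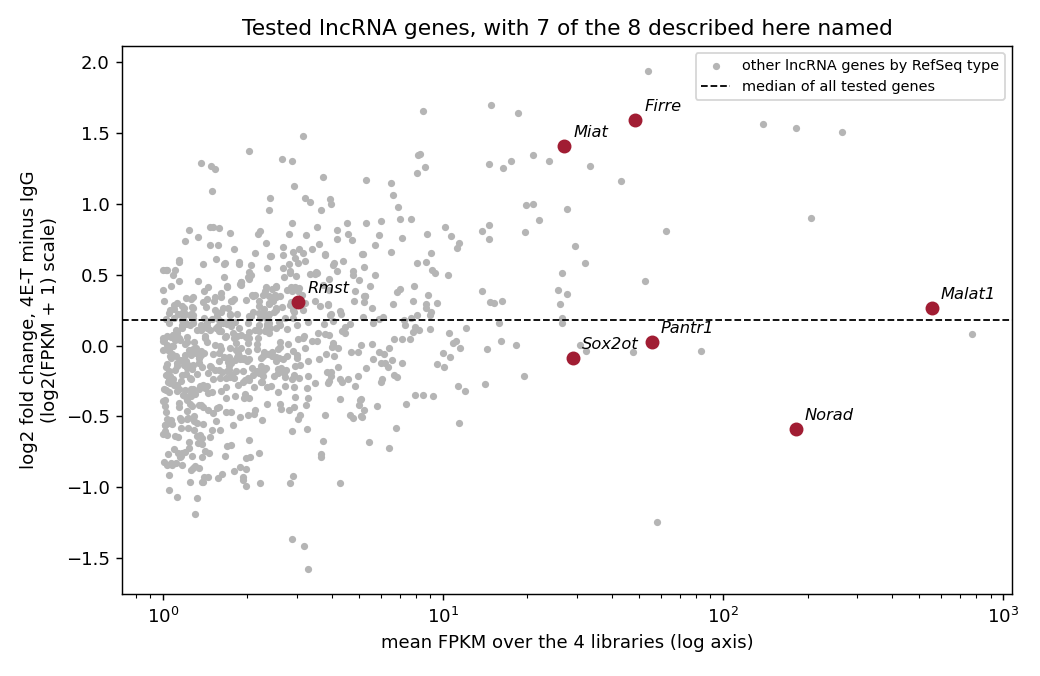
Log2 fold change of 4E-T minus IgG against mean FPKM (log axis) for 800 other long non-coding RNA genes (grey) and for the 7 named RNAs that passed the filter (red). The dashed line is the median of all tested genes, 0.18; Firre and Miat lie at 1.59 and 1.41, and Norad at -0.58.

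A list of 28 other long non-coding RNAs, such as the X-inactivation RNA Xist and its neighbours, matched 24 rows of the deposited values, 23 of them tested. These are counts of rows and not of RNAs, since Dlx6os1 was listed more than once and each of its rows was tested. Their median log2 fold change was 0.06, and with the block 3 rose and 0 fell, against 17.5% and 4.44% of all genes. Quantile normalization with the block gave 1 higher and 2 lower and a median of -0.10. The 3 with the largest change were 2610307P16Rik, Ftx and Pantr2. The first had 11.1 and 7.58 FPKM in IgG and 23.7 and 23.0 in 4E-T (log2 fold change 1.25, limma with the block adjusted p = 8.53e-05). Ftx, an RNA of the X-inactivation centre, had 5.22 and 3.54 FPKM in IgG and 9.31 and 9.65 in 4E-T (0.98, limma with the block adjusted p = 0.00108), and quantile normalization ended that call (0.64, limma with the block adjusted p = 0.0621). Without the block none of the 23 rows passed limma.

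Messenger RNAs of proteins that these RNAs work with were counted in 3 lists. Nuclear speckle proteins had 12 tested genes, a median log2 fold change of 1.102 and 10 called higher with the block, 0 lower, against 17.5% of all genes higher. Paraspeckle proteins had 14 tested genes, a median of 0.75 and 8 higher, 0 lower. Protein partners and linked transcription factors had 11 tested genes, a median of 0.82 and 6 higher, 0 lower. Quantile normalization with the block gave 9, 6 and 5 higher and 0, 1 and 1 lower in that order. Without the block limma called none of them, and the lists were chosen with earlier results of these data known.

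**Figure D4:**
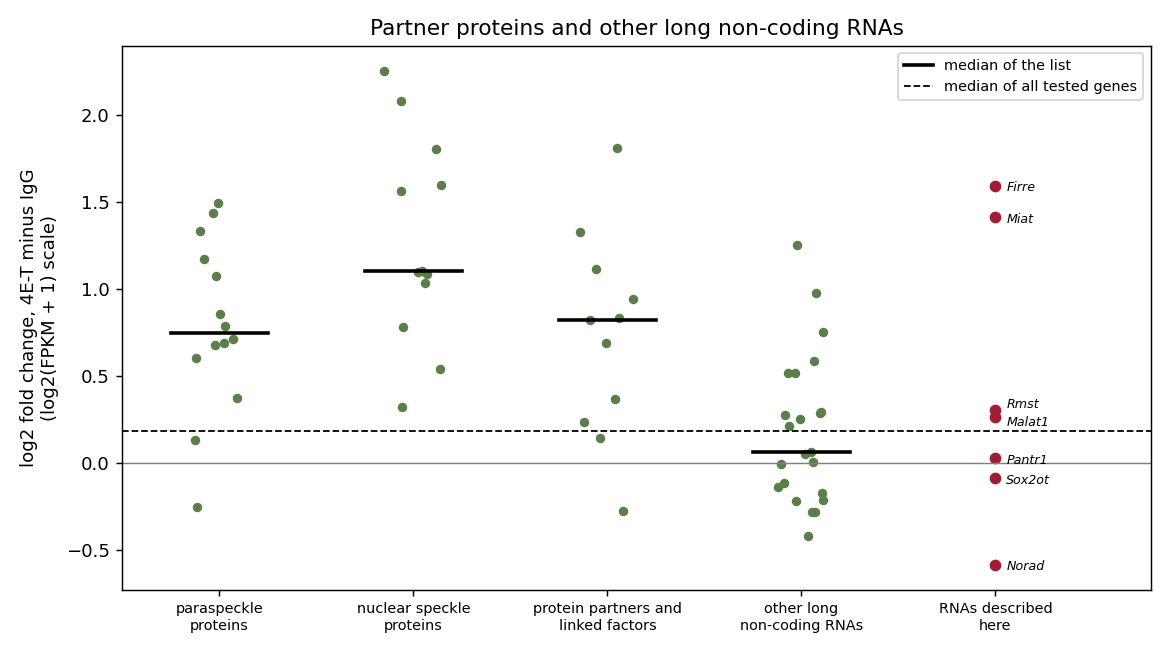
Log2 fold change of 4E-T minus IgG on the log2(FPKM + 1) scale for genes of 4 lists (green points, black bars are list medians) and for the 7 tested RNAs (red, named). The dashed line is the median of all tested genes; the speckle and paraspeckle protein lists have medians of 1.102 and 0.75, while the named RNAs spread from -0.58 to 1.59.

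Among speckle proteins the largest changes were those of Srrm1, Pnn and Srrm2. Srrm1, a splicing coactivator, had 36.3 and 32.6 FPKM with IgG and 176 and 159.9 with 4E-T (log2 fold change 2.25, limma with the block adjusted p = 7.99e-11). Pnn, which encodes pinin of the exon junction, had 39.8 and 38.3 FPKM in IgG and 146 and 194 in 4E-T (2.08, limma with the block adjusted p = 2.95e-09). Srrm2, a scaffold of nuclear speckles, had 51.0 and 46.3 FPKM in IgG and 184 and 161 in 4E-T (1.80, limma with the block adjusted p = 3.37e-07). For each of these the groups did not overlap, while those of Malat1, the RNA of the same domain, did; the difference between them was not tested.

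Sfpq and Smarca4 were among the largest changes of the paraspeckle proteins. Sfpq, an essential protein of paraspeckles, had 31.7 and 44.6 FPKM in IgG and 90.1 and 129 in 4E-T (log2 fold change 1.49, limma with the block adjusted p = 2.75e-05). Smarca4, a chromatin remodelling ATPase, had 22.8 and 60.5 in IgG and 69.3 and 152 in 4E-T, and its log2 fold change of 1.44 became 0.75 without IgG replicate 1. Nono, a partner of Sfpq named for its role, had a log2 fold change of 0.71 and did not pass (limma with the block adjusted p = 0.0788).

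Of the direct partners, Rbmx changed most, with 42.1 and 33.8 FPKM in IgG and 121 and 149 in 4E-T (log2 fold change 1.81, limma with the block adjusted p = 2.84e-07). RBMX is a nuclear protein reported to bind NORAD in human cells. Sf1, whose protein recognises the repeat of Miat, had 23.7 and 34.5 FPKM in IgG and 66.0 and 81.1 in 4E-T (1.33, limma with the block adjusted p = 0.000201). The next partners lie outside the naming rule and are given for their ties to single members, chosen after their values were seen. Hnrnpu, the partner of Firre, had 46.4 and 76.6 FPKM in IgG and 108 and 123 in 4E-T (0.94, limma with the block adjusted p = 0.0136), and was not called on reads (0.88, limma-voom with the block adjusted p = 0.0548). Pum2, whose Pumilio protein is bound by Norad, had a log2 fold change of -0.28 and did not pass with the block (limma adjusted p = 0.544), but quantile normalization called it lower (-0.65, limma with the block adjusted p = 0.00695).

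Genes whose 4 libraries lay nearest to a member, by Euclidean distance of log2(FPKM + 1) among 7493 genes with a mean of at least 10 FPKM, were mostly protein-coding. Nearest to Firre were Supt20 and Parp2, at distances of 0.352 and 0.354, with log2 fold changes of 1.51 and 1.496. Nearest to Miat were Snhg15 and Prpf38a, at 0.424 and 0.435. Norad had Tubb3 and Rnf187 nearest, at 0.457 and 0.464, and both shared its high IgG replicate 2, at 267 and 268 FPKM. Sox2ot was nearest to Naa38 and Rheb, at 0.08 and 0.127, and Pantr1 to Lamtor5 and Mtch2, at 0.036 and 0.106. Malat1 had no close gene: Gm24270 and Gm25911 lay at 1.06 and 1.14. Rmst and Neat1 are below the level searched, so their nearest genes, at distances of at least 2.76 and 4.87, are not alike.

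Genes next to the members on the chromosome gave no common pattern. Stk26, the nearest tested gene after Firre, had 3.19 and 2.54 FPKM in IgG and 7.93 and 9.88 in 4E-T, and rose by 1.36 on the log2 scale in the blocked fit (limma adjusted p = 2.2e-06). Gm22288, on the other side, had a log2 fold change of -0.39 and did not pass. Beside Miat, E130006D01Rik and Cryba4 had 0.35 and 0.38 and did not pass. Frmd8, the nearest tested gene after Malat1 and Neat1, had -0.005 and did not pass. Tmpo and Nedd1 beside Rmst, and Cnbd2 and Gm14173 beside Norad, did not pass with the block either, with log2 fold changes of 0.57, 0.29, 0.29 and 0.64. Nor did Gm20515 and Gm3143 beside Sox2ot, at 0.02 and -0.64, while Gm28175 beside Pantr1 passed on the FPKM (0.64, limma with the block adjusted p = 0.0427). It was not called after quantile normalization (0.40, limma with the block adjusted p = 0.32) or on reads (0.70, limma-voom with the block adjusted p = 0.0826).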

How the data were processed

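RNA from 4 libraries, 2 of each antibody, was analysed from 1 deposited table. Per the submitters' processing notes, the build was mm10, and the tools named, with no role given, include STAR 2.6.0c as well as HTSeq 0.6.1p2 and also DESeq2 1.26.0. Strand setting and annotation release are not known from these sources. Per the labels' protocols, cDNA came from a SMART-Seq v4 kit, which primes on poly(A), and libraries from Nextera XT. Malat1 and the long form of Neat1 lack a usual poly(A) tail, and what that did to their counts was not tested.

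Per the file headers, the authors deposited FPKM per library, a mean normalized signal per gene, log2 fold changes with standard errors, a Wald score, p-values and a linear fold change. No source used here describes the model of that comparison, whose values are credited to the authors.

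Genes with a mean of at least 1 FPKM (17651) were tested on log2(FPKM + 1) by limma 3.58.1 (R 4.3.3), with antibody as the only term, trend and robust moderation, two-sided, Benjamini-Hochberg over all genes, threshold 0.05. Fold changes on that scale understate low genes. Whole reads were recovered for 100% of values (tolerance 0.001), and gene lengths were set by the RefSeq span of Malat1. The read-based fits used limma-voom, scaled by trimmed mean of M-values (trims 0.3 and 0.05), on genes with a mean RPM of at least 1. The titles give libraries of both antibodies the same experiment number, read as a shared batch, and libraries of an experiment deviated together (r = 0.672 across genes, and 0.491 after quantile normalization), so the block is printed where it changes a call. The fits were run on simulated data with 200 changed genes. That check covered the direction and size of those changes, and set no limit on how many unchanged genes were called. An exact permutation test of 2 against 2 cannot go below 0.333, so none was used.

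All 8 genes were named. From each partner or non-coding list the 3 largest changes were named, with the 2 nearest genes to each member; some of the genes so named are not reported here. Members and lists were chosen with earlier results of these data known. Motif counts in transcripts were planned and not made, since transcript sequences were not used here.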

Additional observations from a re-analysis of the deposited data

How the results depend on the processing

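The number of calls depended on the block and the scaling. The limma fit with antibody alone called 1 gene higher and 0 lower, the same with a pseudocount of 0.1, and 0 and 0 without the filter, after quantile normalization or in limma-voom on reads. At an unadjusted p under 0.05 these were 1982 and 315 genes, and 1926 and 1042, 1762 and 1257, and 2035 and 146 in the last 3 fits. With the replicate block, which pairs libraries by experiment, 3090 were higher and 784 lower. The block gave 2697 and 1863 without the filter (a fit added after seeing the data, because the filter left out Neat1), 1843 and 1630 after quantile normalization and 2857 and 2043 on reads. Of the RNAs described, the block called 2 higher and 0 lower, 2 and 0 without the filter, 1 and 2 after quantile normalization (Firre higher, Norad and Sox2ot lower) and 2 and 1 on reads (Neat1 lower). The cause of these differences was not tested. Leaving out 1 library without a block called 2 to 2441 genes higher and 0 to 1094 lower, and 0 to 2 of the RNAs higher and 0 lower.

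Over single left-out libraries the log2 fold change ran from -0.31 to 0.84 for Malat1, -1.43 to 0.26 for Norad, -0.21 to 0.04 for Sox2ot and -0.22 to 0.28 for Pantr1. Pantr1 was at -0.32 after quantile normalization with or without the block and at -0.048 and -0.049 on reads without and with it. Of 87 values of single RNAs under alternatives, 63 kept direction and side of the threshold, 14 passed where the fit without a block did not, and 10 changed sign. The planned edgeR fits were not run, because the deposited values are FPKM. Depth limits Rmst and Neat1 most, with 124 to 268 and 270 to 741 reads per library.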
